A study of Mus musculus with 6 samples.

Results

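The kallikrein-related peptidases are secreted serine proteases of the outer epidermis, and 9 rows of the gene table were examined around them. They are the protease genes Klk5, Klk6, Klk7, Klk8, Klk10, Klk11 and Klk14, the protease inhibitor gene Spink5, and 2310002F09Rik, which GENCODE M21 lists as a processed transcript, neither a protease nor an inhibitor gene, on the strand opposite Klk8 and Klk14. They were chosen by symbol out of 48377 symbols, with earlier results of the same treatment contrast known, so the differences between treatments are given as descriptions, with no test. Of the 9 genes, 8 had a count in any library, 5 had at least 10 counts over all libraries and 0 passed the filter on low counts that was set for the test across all genes. Together they held 186 counts, 87 of them (46.8%) under 2310002F09Rik.

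Skin of db/db mice, a diabetic model that lacks a working leptin receptor, was sequenced in 6 libraries after 16 days of treatment. The 3 vemurafenib libraries came from mice given vemurafenib (PLX4032, labelled 1 uM), a BRAF kinase inhibitor that the series title describes as topical, and the 3 vehicle libraries from mice given vehicle, with sample titles that name DMSO. Both groups are db/db. The labels give neither age nor sex, nor whether each library is a mouse of its own, nor whether the skin was wound tissue, and the spread between libraries may be technical in part.

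In the granular layer, kallikreins are released into the space between the cells, where they cut the desmosomal proteins that hold corneocytes together, so that the skin surface can be shed. KLK5 activates itself and KLK7 in human skin, and LEKTI, the product of SPINK5, blocks both. Loss of SPINK5 in people causes Netherton syndrome, in which the unchecked proteases damage the skin barrier.

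The libraries were shallow. They held 78434, 20796 and 38293 counts in vemurafenib 1, 2 and 3, and 22985, 14189 and 48798 counts in vehicle 1, 2 and 3. Values are given as CPM, counts brought to a library size of 1000000 after TMM adjustment. A count of 0 allows up to 38.9 to 141 CPM in a vemurafenib library and up to 64.9 to 210.0 CPM in a vehicle library, taking 3 counts as the floor, for counting error only. A single read is worth between 13.0 and 70.0 CPM here. Because whole skin was sequenced, fewer keratinocytes and less RNA per keratinocyte cannot be told apart.

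All but Spink5 lie in 1 cluster on chromosome 7 (mm10), where the protease genes run on the plus strand over 161 kb from Klk14 (7:43690418-43695536) to Klk5 (7:43841971-43851181). 2310002F09Rik (7:43695209-43797958) runs on the minus strand and spans 103 kb, with Klk9, Klk10, Klk11, Klk12 and Klk13 lying wholly within its introns on the other strand. Its exons overlap the first exon of Klk8 (7:43797577-43803826) by 382 bp and the last exon of Klk14 by 287 bp, which together make up 14.9% of its 4492 bp of exon. Spink5 lies apart on chromosome 18 (18:43963235-44022501), with no exon of another gene opposite it.

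**Figure D1:**
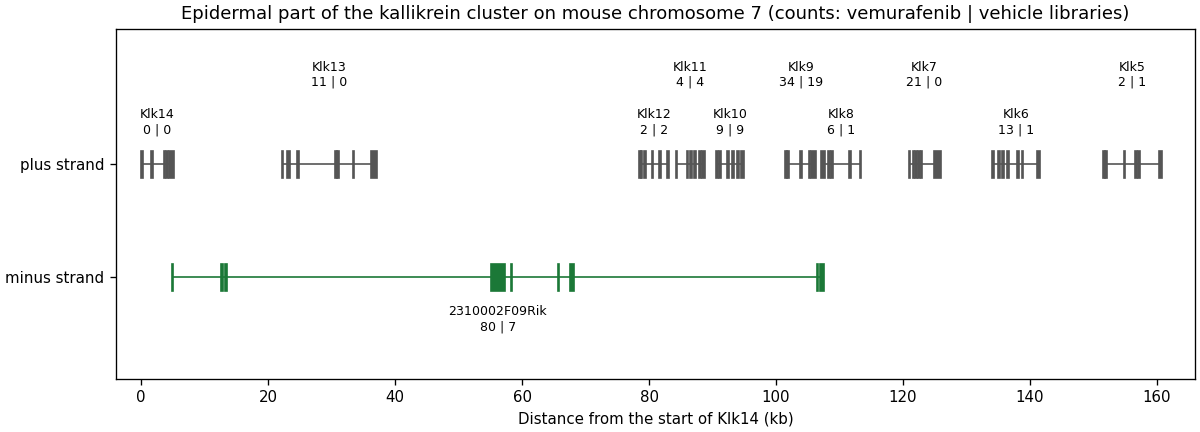
Gene models of the cluster, with distance from the start of Klk14 in kb on the horizontal axis, the 2 strands on the vertical axis and exons as boxes drawn at least 0.25 kb wide. The counts under each name are totals of the 3 vemurafenib and then the 3 vehicle libraries, and 2310002F09Rik, alone on the minus strand, has 80 and 7, the most in the vemurafenib libraries.

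The sequence before Klk8 shows how closely 2310002F09Rik and Klk8 are laid out. Of the 250 bases upstream of the RefSeq start of Klk8 (chr7:43797327-43797576, GRCm38.p6, plus strand), 157 also lie in an exon of 2310002F09Rik, and these are in capitals.
Klk8: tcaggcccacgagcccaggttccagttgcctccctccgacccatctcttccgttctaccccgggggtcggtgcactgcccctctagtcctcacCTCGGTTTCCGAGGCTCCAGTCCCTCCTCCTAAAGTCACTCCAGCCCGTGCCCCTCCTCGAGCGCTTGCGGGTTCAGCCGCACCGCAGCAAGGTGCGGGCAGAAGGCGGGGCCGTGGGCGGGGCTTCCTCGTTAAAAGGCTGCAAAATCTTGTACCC
The upstream sequences of Klk7 and Klk10 are set beside it because Klk7 was counted in the 3 vemurafenib libraries alone and Klk10 equally often in both groups. In these, capitals mark TTAAAA and GGGCGG on either strand (Klk7 at chr7:43811044-43811293, Klk10 at chr7:43780804-43781053, same build and strand).
Klk7: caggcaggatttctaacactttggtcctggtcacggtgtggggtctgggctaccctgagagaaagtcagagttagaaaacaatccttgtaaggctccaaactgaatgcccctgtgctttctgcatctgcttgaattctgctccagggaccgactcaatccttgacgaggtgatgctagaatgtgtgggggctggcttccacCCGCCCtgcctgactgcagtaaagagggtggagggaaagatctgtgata
Klk10: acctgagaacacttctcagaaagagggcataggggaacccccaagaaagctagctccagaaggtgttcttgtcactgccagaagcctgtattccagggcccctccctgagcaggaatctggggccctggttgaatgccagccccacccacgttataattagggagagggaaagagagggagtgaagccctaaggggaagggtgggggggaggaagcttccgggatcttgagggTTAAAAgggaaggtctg
TTAAAA, chosen after the sequences were read, begins at position -26 before Klk8 and -17 before Klk10, where -1 is the last base before the RefSeq start. GENCODE M21 starts Klk10 earlier, at 7:43781035, so by that model the element lies within the first exon of Klk10. TTAAAA lay further off at -68 before a start of Klk6 and at -233 before Klk11. In all it was present in 4 of the 10 upstream windows that RefSeq gives for 8 of the members, against 17.7% of all 32851 windows of the same length. GGGCGG, a core of SP and KLF factor motifs, begins at -42 before Klk8 and, as its reverse complement CCGCCC, at -49 before Klk7. It was also in 4 of the 10 windows, against 32.7% of all windows, and the remaining windows with it all belong to Klk6. The 2 elements do not overlap in Klk8. Neither TATAAA (12.4% of all windows) nor the AP-1 motif TGANTCA (6.75%) was found in any of the 10, with both strands searched.

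The opposite-strand feature held the most counts. 2310002F09Rik had 48, 6 and 26 counts in vemurafenib 1, 2 and 3, or 622, 282 and 693 CPM, against 4, 3 and 0 counts in vehicle 1, 2 and 3, or 164, 210.0 and 0 CPM. The groups did not overlap, and vemurafenib 2 lay nearest to the vehicle libraries. The means were 532 ± 220 CPM with vemurafenib and 125 ± 110 CPM with vehicle (SD, n = 3 each), a log2 ratio of 2.10. Without vehicle 2 the ratio was 2.69 and without vehicle 3, the library at 0, it was 1.54.

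What a count means here depends on the strand that was counted. The libraries are labelled stranded, and the strand setting of the counting is not given in the sources used here. Tsix had 704 counts in the 6 libraries and Xist, which lies opposite it and is the abundant RNA of the inactive X chromosome, had 35. At the kallikrein locus, Klk8 and Klk14, the partners of 2310002F09Rik, had 7 and 0 counts. Dcn and Lum, the genes of abundant dermal proteoglycans, had 4 and 3 counts. The dermal collagen genes Col1a1, Col3a1 and Col1a2, with no exon of another gene opposite them, had 2950, 2790 and 1457 counts. Whether the 87 counts of 2310002F09Rik came from its own transcript or from those of Klk8 and Klk14 was not tested, since the table gives no read positions. The same holds for the other members, including Klk7 and Spink5, and for the genes of the pathway and marker lists. Whether the counts under their names are sense reads was not tested, and the values below describe counts under a name. Summed over Klk8, Klk14 and 2310002F09Rik, the counts were 661, 329 and 747 CPM in vemurafenib 1, 2 and 3, against 205, 210.0 and 0 CPM in vehicle 1, 2 and 3. The groups of this sum did not overlap either, with a log2 fold change of 2.51 ± 0.67 (SE). Because 382 of the 1540 exon bp of Klk8 and 287 of the 1271 of Klk14 lie opposite 2310002F09Rik, the sum also depends on the strand setting.

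Klk7 was counted in no vehicle library. This chymotrypsin-like protease, which degrades corneodesmosin and desmocollin 1, had 9, 2 and 10 counts in vemurafenib 1, 2 and 3, or 117, 93.9 and 267 CPM, against 0 in each vehicle library. The vehicle libraries hold 85972 counts together, so that 0 counts allow up to 35.3 CPM over the group. Against that floor of 3 counts over the group, the pooled Klk7 counts were at least 4.37-fold higher with vemurafenib, and at least 3.16-fold without vemurafenib 3. This bound allows for counting error in the vehicle libraries only. It covers neither the counting error of the vemurafenib counts nor the spread between libraries. Without vehicle 3, the deepest vehicle library, the floor was 77.5 CPM and the bound fell to at least 1.99-fold higher. The floors of vehicle 1 and 2, 123 and 210.0 CPM, lie above the values of vemurafenib 1 and 2, while that of vehicle 3, 64.9 CPM, lies below all 3 vemurafenib values.

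Absence from every vehicle library with a count in every vemurafenib library was rare among genes with at least 10 counts in total. Of 4697 genes with at least 10 counts, 17 (0.362%) had this pattern. The vemurafenib libraries were together deeper, with 137523 counts. In the same set 321 genes (6.83%) had every vemurafenib library above every vehicle library, and 2310002F09Rik and Klk7 were 2 of the 5 members in it. Because the members were picked with this contrast known, nothing is read from either share.

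The other proteases did not share 1 pattern. Klk6, a trypsin-like protease also known as neurosin, had 13, 0 and 0 counts in vemurafenib 1, 2 and 3, against 0, 1 and 0 counts in vehicle 1, 2 and 3. Its pooled ratio of 8.12, with an exact 95% interval of 1.22 to 345 for counting error only, therefore rests on vemurafenib 1 alone, and without it the groups had 0 and 1 counts. Klk8, or neuropsin, had 3, 1 and 2 counts, or 38.9, 46.9 and 53.3 CPM, against 1, 0 and 0 counts, or 40.9, 0 and 0 CPM. The groups overlapped, and the pooled ratio of 3.75 had an interval of 0.45 to 172.

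Klk10 and Klk11 were counted equally often in the groups despite the greater depth of the vemurafenib libraries. Klk10 had 5, 0 and 4 counts in vemurafenib 1, 2 and 3, or 64.8, 0 and 107 CPM, against 2, 0 and 7 counts in vehicle 1, 2 and 3, or 81.8, 0 and 151 CPM. Its highest value was in vehicle 3 and the log2 ratio of the means was -0.44, which became 0.52 without vehicle 3 and 0.12 without vemurafenib 2. Klk11 had 1, 0 and 3 counts with vemurafenib, or 13.0, 0 and 80.0 CPM, against 1, 1 and 2 counts with vehicle, or 40.9, 70.0 and 43.3 CPM. The log2 ratio was -0.73, from -2.92 without vemurafenib 3 to -0.19 without vemurafenib 2.

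Klk5, whose product starts the cascade, and Klk14, another trypsin-like protease gene, were at or below the limit of detection. Klk5 had 1, 0 and 1 counts in vemurafenib 1, 2 and 3, against 0, 1 and 0 counts in vehicle 1, 2 and 3, and no fold is given. Klk14 had 0 counts in all 6 libraries, which allows up to 13.6 CPM over their 223495 counts. Reads of Klk14 could have been counted under 2310002F09Rik or dropped where the 2 overlap, which was not tested.

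The inhibitor gene was higher in 2 of the 3 vemurafenib libraries than in any vehicle library. Spink5, whose product LEKTI holds KLK5, KLK7 and KLK14 in check, had 15, 1 and 8 counts in vemurafenib 1, 2 and 3, or 194, 46.9 and 213 CPM, against 0, 2 and 2 counts in vehicle 1, 2 and 3, or 0, 140.0 and 43.3 CPM. The groups overlapped because vemurafenib 2 lay below vehicle 2. The means were 152 ± 91.1 and 61.1 ± 71.7 CPM (SD, n = 3 each), a log2 ratio of 1.31 that ranged from 0.69 without vehicle 1 to 2.80 without vehicle 2.

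**Figure D2:**
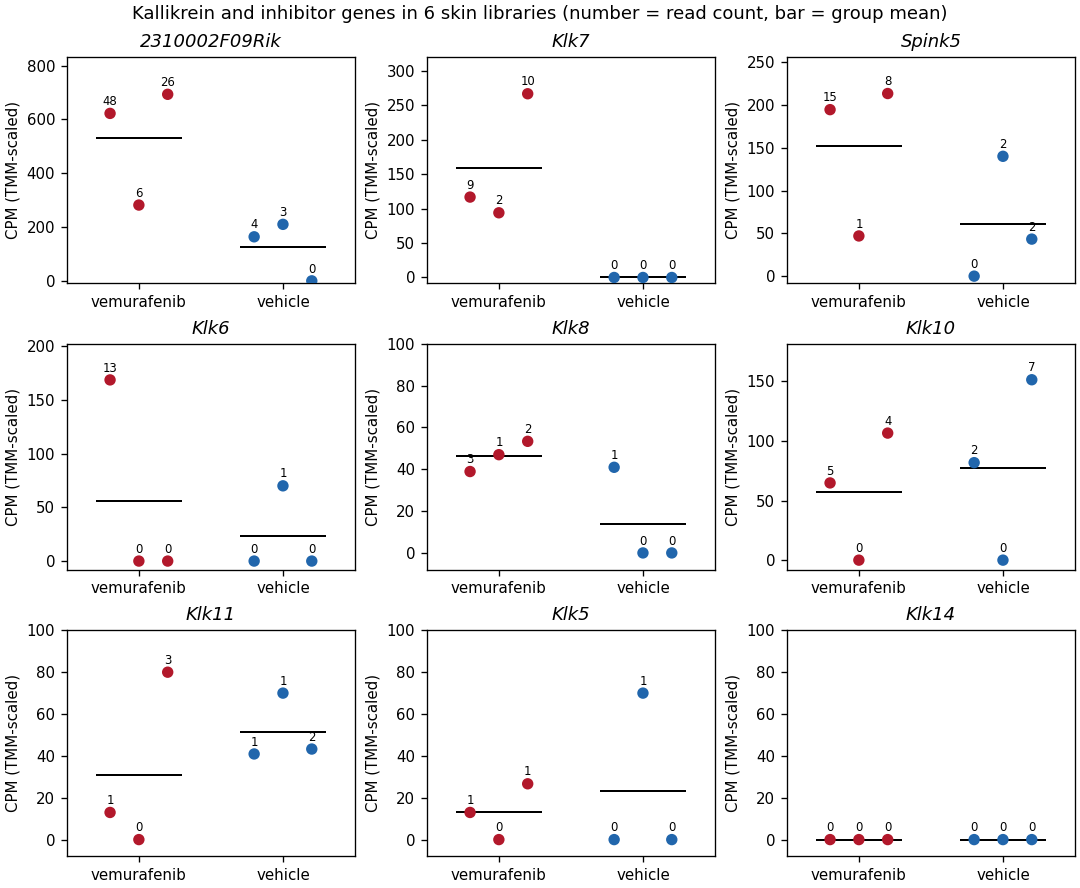
CPM of each of the 9 genes in the 3 vemurafenib (red) and 3 vehicle (blue) libraries on the vertical axis, with libraries 1 to 3 from left to right, the read count above each point and the group mean as a bar. 2310002F09Rik and Klk7 are the 2 genes whose groups do not overlap, and Klk6 rests on the 13 counts of vemurafenib 1.

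The order of the levels also differed between the groups. Per kb of merged exon, the counts of the 3 vemurafenib libraries together were 17.8 for 2310002F09Rik, 11.1 for Klk7, 8.59 for Klk6, 6.55 for Klk10 and 5.02 for Spink5. In the vehicle libraries Klk10 led with 6.55 counts per kb, followed by Klk11 with 2.73 and 2310002F09Rik with 1.56. The vehicle order rests on 9, 4 and 7 counts, and Klk10 had no count in vehicle 2, so these neighbours are not separated beyond their spread. In the vemurafenib libraries Klk6 holds its place through 1 library, and Klk10 and Spink5 overlap between libraries.

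Summed over the 9 genes, vemurafenib 1, 2 and 3 held 95, 10 and 54 counts, or 1232, 469 and 1439.9 CPM, against 8, 8 and 11 counts, or 327, 560.0 and 238 CPM, in vehicle 1, 2 and 3. Vemurafenib 1 and 3 were above every vehicle library and vemurafenib 2 was below vehicle 2. The fit gave a log2 fold change of 1.63 ± 0.51 (SE), which lay between 1.36 and 1.94 when any 1 library was left out, with the lowest value without vehicle 3. As shares of the unscaled totals, vemurafenib 2 had 481 counts in every 1000000 (exact 95% interval 231 to 884) and vehicle 2 had 564 (243 to 1111), so those libraries were not distinguishable at this depth.

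The protease genes were also summed alone. The 7 Klk genes summed to 415, 141 and 533 CPM in vemurafenib 1, 2 and 3, against 164, 210.0 and 195 CPM in vehicle 1, 2 and 3. The vehicle libraries lay close together (189 ± 23.6 CPM), while the vemurafenib libraries lay on both sides of them (363 ± 201 CPM; SD, n = 3 each). The log2 fold change was 1.03 ± 0.55 (SE) for these 7 and 1.18 ± 0.49 with Spink5 added. The 7 Klk genes without vemurafenib 3 had 0.79 ± 1.01.

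**Figure D3:**
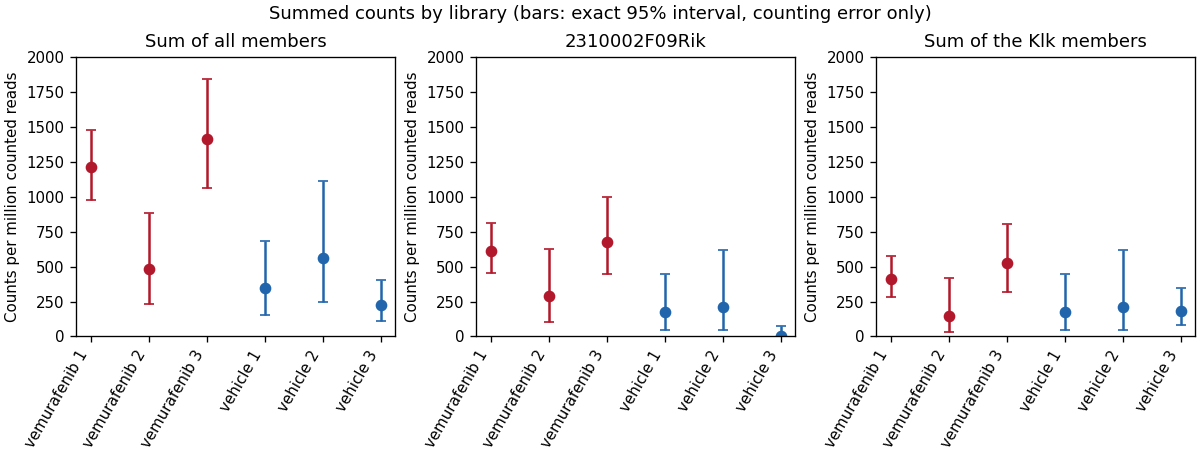
Counts scaled to an unadjusted library total of 1000000 on the vertical axis, for the sum of the 9 genes, 2310002F09Rik alone and the sum of the 7 Klk genes, in vemurafenib (red) and vehicle (blue) libraries, with exact 95% intervals that cover counting error only. Vemurafenib 1 and 3 are highest in each panel, and the intervals of vemurafenib 2 overlap those of vehicle 1 and 2.

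Across all genes, edgeR's quasi-likelihood test called 0 of 477 tested genes (0%), none of them a member since no member reached the tested set. At an unadjusted p under 0.05 there were 23 genes, and DESeq2 and limma-voom also called 0 (14 and 41 unadjusted). With a looser filter of at least 10 counts in total, edgeR called 3 of 4697 genes (0.0639%), all higher with vemurafenib. One of these was 2310002F09Rik, with a fitted log2 fold change of 2.56 ± 0.61 (SE), while DESeq2 called 0 of the same 4697. That fit is part of the contrast on which the gene was picked and is no separate support.

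Other genes of the pathway were read from lists of kallikreins, epidermal proteases, inhibitors and substrates. Of the 6 other tissue kallikreins, 3 had counts, 0 were tested and their sum had a log2 fold change of 0.42 ± 0.55 (SE). Klk9 (7:43791891-43796757), a neighbour of Klk8, was counted more than any member protease gene, with 14, 1 and 19 counts, or 182, 46.9 and 507 CPM, in vemurafenib 1, 2 and 3, against 5, 5 and 9 counts, or 205, 350.0 and 195 CPM, in vehicle 1, 2 and 3. Its groups overlapped. Klk13 (7:43712567-43727534) had 9, 1 and 1 counts with vemurafenib and 0 in each vehicle library, the same presence pattern as Klk7 with most reads in vemurafenib 1. With all 13 kallikreins the fold change was 0.67 ± 0.48.

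The remaining pathway lists were thinly counted. Of 9 other proteases of the upper epidermis, all 9 had counts and 0 were tested, and their sum had 507 ± 55.5 CPM with vemurafenib and 403 ± 273 CPM with vehicle (SD, n = 3 each). The cathepsin genes Ctsl (opposite Gm47123, and sharing exons with a pseudogene) and Ctsd (sharing exons with Gm49369) led it with 28 and 22 counts. Of 7 other inhibitors, 5 had counts and 0 were tested. Their sum was 130, 188 and 187 CPM in vemurafenib 1, 2 and 3 from 10, 4 and 7 counts, against 81.8, 70.0 and 0 CPM in vehicle 1, 2 and 3 from 2, 1 and 0 counts. These groups did not overlap, at 24 counts in all. Cst6, the cystatin M/E gene, had 4, 2 and 1 counts with vemurafenib and 0 in each vehicle library, and Spint2, a Kunitz inhibitor gene, had 3, 0 and 2, against 1, 1 and 0.

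Of the 9 genes in the list of substrates and the receptor gene F2rl1, 7 had counts and 1 was tested. That was Flg, the filaggrin gene, with 61, 6 and 14 counts in vemurafenib 1, 2 and 3, against 1, 5 and 43 counts in vehicle 1, 2 and 3, and a log2 fold change of 0.07 ± 0.65 (SE; edgeR adjusted p = 0.995). The median over all 477 tested genes was 0.02. Dsc1, the desmocollin gene, had 6, 2 and 0 counts with vemurafenib and 0, 1 and 0 with vehicle. Cdsn, the gene of the KLK7 target corneodesmosin, had 2, 1 and 5 counts with vemurafenib and 0 in each vehicle library, 8 in all. F2rl1 and Camp, the genes of the protease receptor PAR2 and of cathelicidin, had 0 counts throughout.

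Markers of the layer that makes kallikreins overlapped between the groups as a list. The 10 granular and suprabasal markers, of which 9 had counts and Krt2 was at 0, summed to 2917, 2254 and 4160 CPM in vemurafenib 1, 2 and 3, against 2046, 3920 and 2813 CPM in vehicle 1, 2 and 3. The log2 fold change of the sum was 0.10 ± 0.44 (SE), and of the 5 tested members 0 passed in either direction (median 0.07). Set against this list, the 9 genes had 42.2, 20.8 and 34.6 counts per 100 marker counts in vemurafenib 1, 2 and 3, against 16.0, 14.3 and 8.46 in vehicle 1, 2 and 3. The groups did not overlap on this ratio, which was chosen after the values were seen and rests on 10 counts in vemurafenib 2 and 8 in vehicle 1 and 2. Without 2310002F09Rik, which held 6 of those 10, the ratio was 20.9, 8.33 and 17.9 in vemurafenib 1, 2 and 3, against 8.0, 8.93 and 8.46 in vehicle 1, 2 and 3, and the groups overlapped.

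Other epidermal and dermal markers differed more between libraries. The 4 wound-edge keratins, all counted, had 959, 939 and 1840 CPM in vemurafenib 1, 2 and 3, against 859, 770.0 and 43.3 CPM in vehicle 1, 2 and 3. Like 2310002F09Rik and Klk7, this list did not overlap between the groups. Taken singly, Krt17 did not overlap, nor did Krt5 of the basal markers, while Krt6a, Krt6b and Krt16 overlapped. The wound-edge list had a log2 fold change of 1.31 ± 0.70 (SE), beside 1.63 ± 0.51 for the sum of the 9 genes. Larger values came from the sebaceous gland (2.11 ± 0.73), inner root sheath (3.55 ± 2.10) and other inhibitor (2.02 ± 1.07) lists. Smaller ones came from the basal (0.63 ± 0.45) and fibroblast (-0.61 ± 0.49) lists. A higher value with vemurafenib was thus not particular to the members. The 6 basal markers had between 1724 and 2394 CPM with vemurafenib, against 900.3 to 2170 CPM with vehicle. Vehicle 3, the library with no 2310002F09Rik count and with 43.3 CPM of wound-edge keratins, also had the most fibroblast marker counts, 56036 CPM, against 16586 to 34461 CPM with vemurafenib and 25535 and 37659 CPM in vehicle 1 and 2. Vemurafenib 3 had 7626 CPM of 6 inner root sheath markers, against 141 and 169 CPM in the other vemurafenib libraries and 64.9 to 490.0 CPM with vehicle. The part of these differences in the values of the members was not tested.

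Markers of other cells were thinly counted. Whether these counts are sense reads was not tested, so a low total does not show that a cell type was scarce. Sebaceous gland markers had 130, 469 and 933 CPM in vemurafenib 1, 2 and 3, against 81.8, 210.0 and 86.5 CPM in vehicle 1, 2 and 3, with Awat2 at 0. The 5 macrophage markers had 388 ± 75.5 CPM with vemurafenib and 415 ± 85.2 CPM with vehicle, with Adgre1 at 0. Csf1r, whose exons lie opposite those of Hmgxb3 over 873 bp, held 67 of their 88 counts. The 4 neutrophil markers had 353 ± 89.4 CPM with vemurafenib and 313 ± 272 CPM with vehicle, with Ly6g and Retnlg at 0 (SD, n = 3 each). Adipocyte and skeletal muscle markers had 7 and 3 counts in all, with Adipoq, Lep, Acta1, Myh1 and Myh4 at 0.

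**Figure D4:**
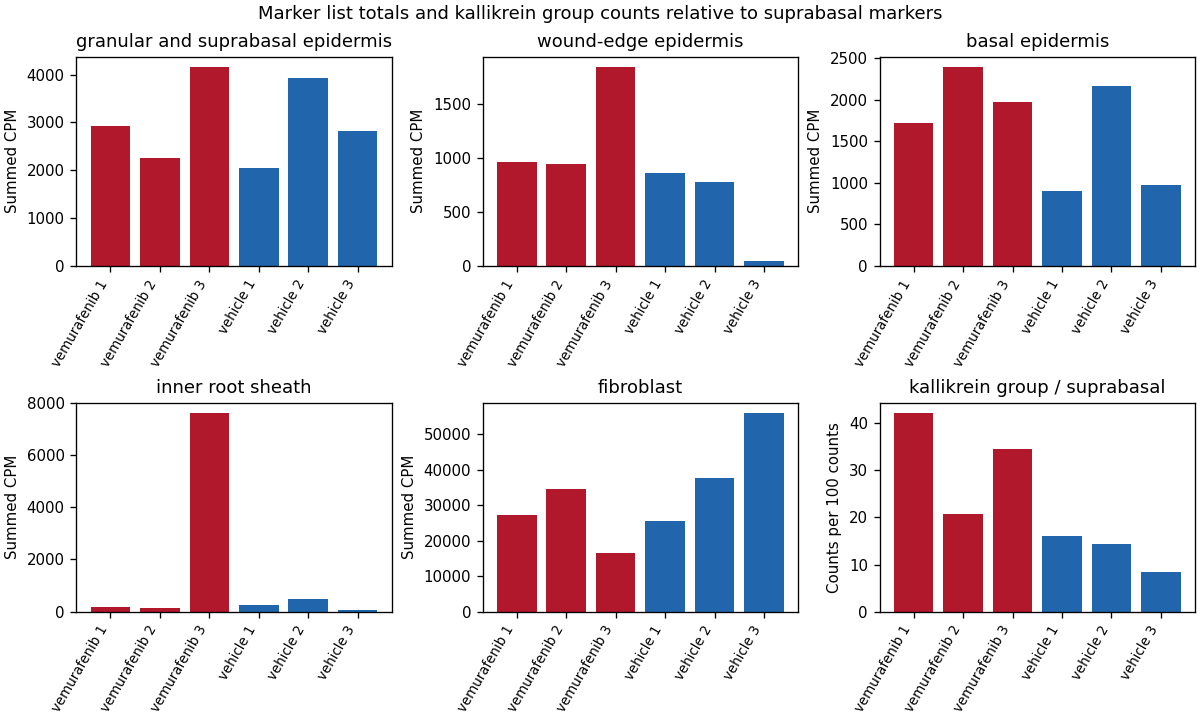
Summed CPM of 5 marker lists and, in the last panel, counts of the 9 genes per 100 counts of the granular and suprabasal list, by library, with vemurafenib in red and vehicle in blue. The granular and suprabasal list overlaps between the groups, vehicle 3 is highest in fibroblast markers and lowest in wound-edge keratins, and the ratio in the last panel is 20.8 to 42.2 with vemurafenib and 8.46 to 16.0 with vehicle, ranges that overlap once 2310002F09Rik is left out.

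The tested genes nearest in pattern to the sum of the 9 were Zmynd15, Mindy1, Krt17, Gm44618 and Glmp. The measure was the root-mean-square distance between log2 CPM values centred over the 6 libraries, which was 0.37, 0.41, 0.43, 0.45 and 0.46 for these 5 and had a median of 0.94 over all 477. Krt17, the wound-edge and follicle keratin gene, had 493, 376 and 853 CPM in vemurafenib 1, 2 and 3, against 205, 280.0 and 43.3 CPM in vehicle 1, 2 and 3. The other 4 each have exons opposite another gene: Cxcl16 for Zmynd15, Prune1 and Anxa9 for Mindy1, Acp7 for Gm44618, and Tmem79 for Glmp. Of the 471 tested genes at a single annotated locus, 383 (81.3%) have such an overlap. Zmynd15 had 1335, 563 and 1173 CPM with vemurafenib, against 655, 630.0 and 216 CPM with vehicle.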

How the data were processed

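Column-purified RNA was enriched for poly(A) and made into stranded single-end libraries, per the labels' protocols. The authors deposited read counts per gene symbol, made with HISAT2 and HTSeq on mm10, per the submitters' processing notes; versions, annotation and strand setting were not given in the sources used here. A table column that matched no sample (1) was not used.

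Members and gene lists were chosen with earlier results of these data known. Genes passing edgeR's filterByExpr (smallest count 10, smallest total 15) were fitted with TMM scaling and the robust quasi-likelihood test (edgeR 4.0.16, R 4.3.3), group as the only term, with a Benjamini-Hochberg threshold of 0.05. The common biological coefficient of variation was 32.7%. Because no member passed the filter, members are given as counts, CPM and ratios of group means where both groups had more than 3 counts. A member with fewer has a pooled ratio over the TMM-adjusted totals with an exact binomial interval. Sums entered the fit as 1 row, giving a log2 fold change and SE (the log2 value divided by the root of the F statistic), with no p. Of each pathway list the 2 genes with most counts are named, and the 5 genes nearest in pattern. The test was checked on simulated counts, where it called 91.6% of 4-fold but only 26.9% of 2-fold changes, and 2.63% of its calls were false. The changed genes there averaged at least 10 counts per library, so the check does not cover genes with fewer. Exon lengths, overlaps and positions are from GENCODE M21, upstream sequences from RefSeq (GRCm38.p6). DESeq2 1.42.0 and limma 3.58.1 were alternatives. No pair of libraries of a group agreed within sampling noise (chi-square test of their counts). Python 3.11.15, pandas 2.3.3, numpy 2.4.6 and matplotlib 3.10.9 were used.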

Additional observations from a re-analysis of the deposited data

How the results depend on the processing

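The count of 0 called genes was kept under the other scalings, DESeq2, limma-voom, the replicate block and the removal of the 20 most abundant genes. The count was 3 with no filter beyond 1 count and also 3 with at least 10 counts in total, where fewer counts per gene sufficed, and 0 to 2 when leaving out 1 library, the 2 without vemurafenib 1. The sum of the 9 genes kept its direction under every setting run, from 1.36 to 1.94 on the log2 scale without 1 library and from 1.48 (ratio of group means) to 1.64 (upper quartile) otherwise. The sum of the 7 Klk genes ranged from 0.79 to 1.29 and that of the 8 genes without 2310002F09Rik from 0.93 to 1.46 without 1 library. With the replicate number as a block the 3 sums had 1.56, 1.04 and 1.16. Deviations of same-numbered libraries correlated at 0.04, -0.08 and -0.33, and those of differently numbered libraries at -0.25 to 0.32. At this depth and number of libraries these values cannot show whether the numbers pair the samples. Of single genes, Klk10 changed sign without vehicle 3 (0.52) and without vemurafenib 2 (0.12), and the edgeR fit of genes with at least 10 counts gave -0.57 ± 0.87 for it. That fit gave 1.75 ± 0.82 for Spink5, and Klk11, at 8 counts, could not enter it. The bound of Klk7 and the ratio to suprabasal markers were given further alternatives after the data were seen, described with them. No member reached the tested set, so depth limits all of these values.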
